A study of Mus musculus with 6 samples.

Results

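The genes described here are 9 enzymes and enzyme subunits of glutamine, serine, pentose phosphate and respiratory metabolism that have been reported as regulated by p73, or that belong beside such genes in the same pathway: Gls2, Glul, Phgdh, Psat1, Psph, Shmt1, Shmt2, G6pdx and Cox4i1. They were listed by name, with earlier results of these data known, and are 9 of the 19751 named genes on the array. They were read by 13 of 39429 probes, and all 13 probes were well above background on all 6 arrays and were among the 31801 probes tested. The samples were whole testes of 3 TAp73 knockout (TAp73 KO) and 3 wild type (TAp73 WT) male C57BL/6J mice aged 10 weeks, with 1 array of the 1-colour Agilent type per mouse and no other allele or treatment named in the labels. The labels do not say how the knockout allele was made or whether the controls were littermates. Whole testis holds germ cells at all stages, Sertoli cells, Leydig cells, vessels and macrophages, so fewer cells of a type and less RNA per cell cannot be told apart in any value below.

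TAp73 is the set of Trp73 products that carry the transactivation domain of p73, a transcription factor of the p53 family. Glutaminases such as GLS2 release glutamate from glutamine in mitochondria, and glutamine synthetase, encoded by Glul, runs the opposite reaction. Serine is made from a glycolytic intermediate by PHGDH, PSAT1 and PSPH in turn, and serine hydroxymethyltransferases then pass a carbon unit from serine to folate. In other cell systems p73 has been reported to act on Gls2, on serine synthesis, on glucose-6-phosphate dehydrogenase and on the cytochrome c oxidase subunit Cox4i1, and the comparison asks whether these transcripts differ in testis where TAp73 is missing.

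Promoter sequences are shown for the member that holds a match to the p53-family binding motif and for the member with the largest difference. The window was the 250 bases before each gene's start in RefSeq, build GRCm38.p6, which had 8 windows for 7 of the 9 members. The p53-family decamer consensus was searched on both strands, and 1 of the 8 windows held it, that of G6pdx, against 7.13% of all 32851 promoter windows. A complete p53-family site, 2 such decamers with 0 to 13 bases between them, was in none of the 8 windows and in 0.0639% of all windows. The motif TGATGNAA, bound by ATF4 with its partners at amino acid response elements, was in none of the 8 and in 3.45% of all. The G6pdx window is chrX:74428881-74429130 on the minus strand and the Glul window is chr1:153899679-153899928 on the plus strand; capitals mark the decamer, which lies 104 to 95 bases before the G6pdx start, and the Glul window holds none.
G6pdx: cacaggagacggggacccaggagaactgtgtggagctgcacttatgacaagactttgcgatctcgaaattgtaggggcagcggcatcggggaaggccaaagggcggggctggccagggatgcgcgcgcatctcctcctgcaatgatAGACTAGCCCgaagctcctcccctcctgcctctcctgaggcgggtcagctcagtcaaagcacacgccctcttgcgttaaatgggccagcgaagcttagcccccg
Glul: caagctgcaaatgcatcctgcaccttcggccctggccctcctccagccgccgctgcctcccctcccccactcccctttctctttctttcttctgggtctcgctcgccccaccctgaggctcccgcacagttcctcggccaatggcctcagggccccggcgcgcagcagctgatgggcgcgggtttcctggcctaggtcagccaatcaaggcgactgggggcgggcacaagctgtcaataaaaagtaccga
A match says only that these letters are present, and these windows leave out introns and distant elements.

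Per array, 74.4% to 84.4% of probes exceeded background clearly and 1.59% to 4.45% reached saturation. On the first principal component, with 39.8% of the variance, knockout replicates 1 to 3 lay at -66.2, -3.92 and -4.91. Wild type replicates 1 to 3 lay at 30.8, 22.5 and 21.7, so the component set knockout replicate 1 far off and also separated the groups. The 3 probes of Trp73, the targeted gene, were each below the wild type arrays on all knockout arrays; they differed by -6.01, -3.21 and -0.99 on the log2 scale (limma, adjusted p = 0.00369, 0.00213 and 0.0104). In the knockouts the first of these exceeded background clearly on 1 of 3 arrays and the second on 2 of 3, so their sizes are uncertain, and under normexp the first was -1.88. As markers of the labelled tissue, all 10 spermatocyte and all 14 Sertoli cell genes listed were above background, and all 8 elongating spermatid genes were saturated somewhere. The authors' table of normalized values carries the opposite genotype labels for the same arrays, so directions below follow the scanner files; under that table's own labels the brightest probes of 8 of the 9 genes change sign, Shmt2 being the exception (-0.029). Levels are log2 of the processed signal minus the array's 75th percentile, called log2 level below, and differences are knockout minus wild type. The test was limma across all tested probes with Benjamini-Hochberg adjustment, and a probe was called at an adjusted p under 0.05. The spread is that between mice, 1 per array.

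None of the metabolic genes was called. Of the 13 probes 0 were lower and 0 were higher at the threshold, where 2.88% of all tested probes were called, 2.64% lower and 0.248% higher. Before adjustment, limma gave a p under 0.05 to 1 lower probe, that of Glul, and 1 higher probe, of Psph, and to 23.1% of all probes. The median difference over the 9 genes, each by its brightest probe, was 0.11, against 0.05 over all 17041 named genes tested. The groups did not overlap for 3 of the 13 probes, 1 each of Glul, Psph and Shmt1, and for 31.7% of all tested probes. The fit's 95% intervals ranged from 0.17 to 0.30 on either side of the difference, so that for the 12 probes other than that of Glul no interval reached below -0.36 or above 0.54. A 2-fold change in either direction, 1 on this scale, lay outside the interval of every probe, although saturation limits the Cox4i1 probe.

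**Figure D1:**
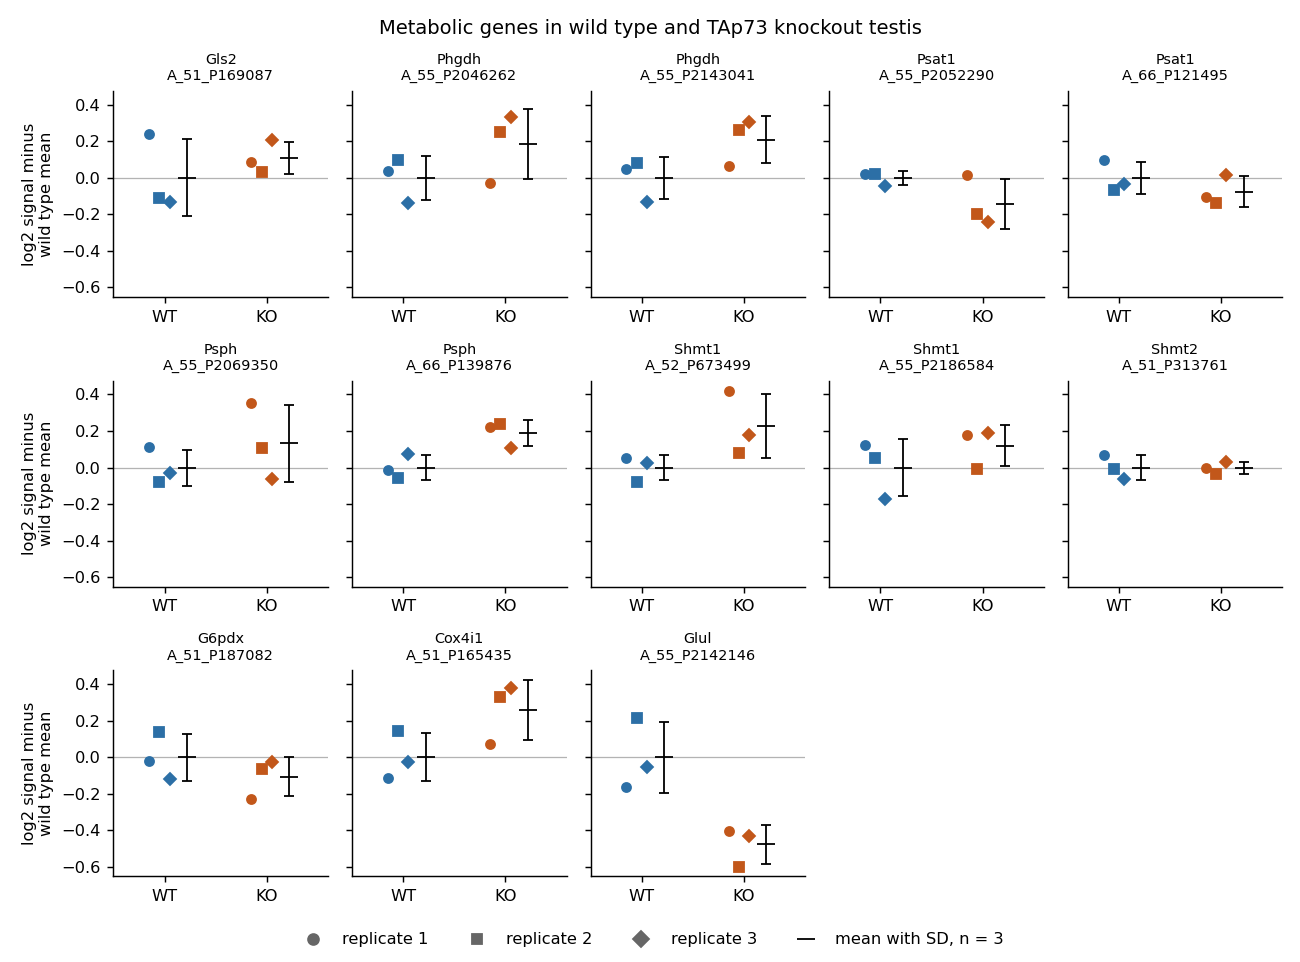
Log2 level in each array minus the wild type mean (y axis) for the 13 probes, with wild type (WT) at the left and TAp73 knockout (KO) at the right of each panel; symbols are the 3 replicates, and bars are the mean with SD. The groups stand apart for Glul, with all 3 knockout arrays lower, and for 1 Psph probe and 1 Shmt1 probe, with all 3 knockout arrays higher.

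Gls2, the mitochondrial glutaminase that is the best known metabolic target of the p53 family, did not differ beyond the spread between mice. Its log2 level was -2.20, -2.25 and -2.08 in knockout replicates 1 to 3 and -2.04, -2.40 and -2.42 in wild type replicates 1 to 3. Wild type replicate 1 was the highest of the 6 arrays, and the other 2 wild type arrays were the lowest. The difference was 0.11 (SE 0.12, 95% interval -0.19 to 0.41, adjusted p = 0.596), which is a knockout level between 0.879 and 1.33 times that of wild type. It was positive in all 16 alternative fits by which every member probe was recomputed, at 0.0055 to 0.25, and called in 0 of them. Normexp and the fit within slide 1, which are among them, called 0 of all tested probes. Among the 16 fits the Gls2 difference was 0.23 without wild type replicate 1 and 0.054 without wild type replicate 2. It was 0.044 without wild type replicate 3 and 0.061 without knockout replicate 3. The 2 genes whose log2 levels ran most like those of Gls2 over the 6 arrays were Ska3, a protein of the spindle attachment of chromosomes (r = 0.987), and Fam217b (r = 0.979). They were taken as the highest of 16914 genes, and 27 genes had an r over 0.95; the 6 arrays share 1 scaling and this is a description only.

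Glul had the largest difference of the 9 genes. Its product, glutamine synthetase, joins ammonia to glutamate. The processed signal, before scaling, was 8124, 5674 and 6761 units in knockout replicates 1 to 3 and 10582, 12522 and 10866 in wild type replicates 1 to 3. On the scaled log2 level these were 0.65, 0.46 and 0.63 against 0.90, 1.27 and 1.00. Every knockout array lay below every wild type array on both scales, and wild type replicate 2 was the highest. The knockout mean was 0.58 ± 0.11 (SD, n = 3) and the wild type mean was 1.06 ± 0.19 (SD, n = 3). The difference of -0.48, a 1.39-fold lower level, missed the threshold (SE 0.12, 95% interval -0.77 to -0.19, adjusted p = 0.0973). Differences at least this large were measured for 9.1% of all tested probes.

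Glul stayed lower within each of the 2 slides that the arrays were on, by -0.39 within slide 1 and by -0.64 in the slide 2 pair. With slide as a block the adjusted p was 0.117. Over all 17 alternatives other than the authors' table the difference ran from -0.56 to -0.37 and the adjusted p from 0.0704 to 0.537. The mean levels of some marker lists of cell types also stood apart between the groups in the same arrays. Those of Sertoli cells, macrophages and spermatogonia were lower in the knockouts, and those of spermatocytes and round spermatids were higher. The groups overlapped for the lists of Leydig, peritubular, endothelial and blood cells and of elongating spermatids. The mean log2 level of 14 Sertoli cell markers was 0.10 to 0.15 in the knockouts and 0.46 to 0.54 in wild type. Of these 14, 4 were called lower and 2 were higher without a call. The mean of 8 macrophage markers was -1.40 to -1.26 against -0.89 to -0.67, with 3 of 8 called lower. Of all named genes tested, 3.52% were called lower. The mean of 10 spermatocyte markers was higher, at 2.63 to 2.69 against 2.40 to 2.44, with 0 of 10 called (limma). Before adjustment 5 of the 10 were higher with p under 0.05, as were 12.0% of all named genes tested. Of those 10, 3 were saturated on some array, where the log2 scaling difference of 0.26 between the groups applies, as given with Cox4i1 below. The median difference over the 10 was 0.23, and the part of scaling in it was not tested. The Sertoli cell, macrophage and spermatocyte markers counted here are those tested, so none was at background throughout. The macrophage list held 9 genes, and Cd68, with no named probe on the array, was left out. The part of any of these lists in the Glul values was not tested.

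None of the 3 enzymes of serine synthesis was called, and differences between them were not tested. Phgdh, the dehydrogenase of the first step, had 2 probes that behaved alike. Its brighter probe had a log2 level of 2.46, 2.74 and 2.82 in the knockouts and 2.52, 2.58 and 2.35 in wild type, a difference of 0.19 (SE 0.12, 95% interval -0.11 to 0.48, adjusted p = 0.376). Knockout replicate 1 lay among the wild type arrays, and knockout replicates 2 and 3 lay above all of them. The other probe differed by 0.21 (SE 0.10, adjusted p = 0.259), with the same 2 knockout arrays on top. Without knockout replicate 1 the 2 probes differed by 0.29 and 0.28 (adjusted p = 0.148 for both). The brighter probe differed by 0.11 without knockout replicate 3 and by 0.12 without wild type replicate 3.

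Psat1, the aminotransferase of the next step, which takes its nitrogen from glutamate, had a mean below that of wild type without a call. Its brighter probe had a log2 level of 0.05, -0.17 and -0.21 in the knockouts and 0.05, 0.06 and -0.01 in wild type, a difference of -0.14 (SE 0.09, 95% interval -0.36 to 0.08, adjusted p = 0.365). Knockout replicate 1 again lay within the wild type range, with replicates 2 and 3 below it, and leaving out replicate 1 gave -0.22 (adjusted p = 0.147). Leaving out knockout replicate 3 gave -0.092. The dimmer probe A_66_P121495 differed by -0.07 (adjusted p = 0.599) and changed sign in 3 of 16 alternatives.

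Psph, the phosphatase that releases serine, was called by neither of its probes. Probe A_66_P139876 had a log2 level of -0.88, -0.86 and -0.99 in the knockouts and -1.11, -1.16 and -1.03 in wild type. The groups did not overlap there, and the difference was 0.19 (SE 0.08, 95% interval 0.0021 to 0.37, adjusted p = 0.214). The brighter probe A_55_P2069350 overlapped between groups, with 0.55 in knockout replicate 1 as its highest value, and differed by 0.13 (SE 0.12, adjusted p = 0.529). Without that array the brighter probe differed by 0.022; it differed by 0.23 without knockout replicate 3.

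The hydroxymethyltransferases, which split serine into glycine and a folate-bound carbon unit, were not called by any of their probes. Shmt1, the enzyme of the cytosol, had a log2 level of -0.32, -0.66 and -0.56 in the knockouts and -0.69, -0.82 and -0.72 in wild type by its brighter probe. All knockout arrays were above all wild type arrays, replicate 2 by the least, and the difference was 0.23 (SE 0.11, 95% interval -0.03 to 0.49, adjusted p = 0.252). It was 0.13 without knockout replicate 1, 0.056 under normexp and 0.053 under normexp with quantile normalization. The dimmer Shmt1 probe overlapped between groups and differed by 0.12 (adjusted p = 0.518). Shmt2, the mitochondrial enzyme, had the smallest difference and the narrowest interval of the 13 probes. Its log2 level was -1.18, -1.22 and -1.15 in the knockouts and -1.11, -1.19 and -1.24 in wild type, with a difference of -0.0034 (SE 0.07, 95% interval -0.18 to 0.17, adjusted p = 0.98). The knockout level of Shmt2 was thus between 0.885 and 1.12 times that of wild type. Whether Shmt1 and Shmt2 differ in their response was not tested.

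G6pdx, the X-linked glucose-6-phosphate dehydrogenase that opens the pentose phosphate pathway and makes NADPH, had a log2 level of 0.93, 1.09 and 1.13 in the knockouts and 1.14, 1.30 and 1.04 in wild type. The groups overlapped and the difference was -0.11 (SE 0.10, 95% interval -0.35 to 0.13, adjusted p = 0.523). It was -0.048 without knockout replicate 1, -0.039 without wild type replicate 2 and -0.17 without wild type replicate 3. G6pd2, its autosomal retrogene copy known from testis, was higher on every knockout array by 0.25 (SE 0.09, adjusted p = 0.195), also without a call. The 2 genes are close in sequence, and how far their probes read each other's transcripts is not known here. H6pd, the related enzyme of the endoplasmic reticulum, fell by 0.50 on the log2 scale (SE 0.08, 95% interval -0.70 to -0.29, adjusted p = 0.0414). Its log2 level was -1.43, -1.54 and -1.42 in the knockouts and -0.93, -0.88 and -1.08 in wild type. H6pd lies on chromosome 4, 40 tested genes away from Trp73, so linkage to the targeted locus and genotype cannot be told apart for it. It was called in 4 of its 16 alternatives and in none of the 6 that leave out 1 array.

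Cox4i1, a subunit of cytochrome c oxidase that is present in most tissues, was too bright for this array. Its probe was saturated on 5 of 6 arrays, with processed signals of 66505 to 72713 in the knockouts and 67216 to 73260 in wild type. Scaling subtracts the 75th percentile, whose log2 mean was 0.26 greater in the wild type arrays, and the scaled difference of Cox4i1 was 0.26 (SE 0.12, adjusted p = 0.238). No fold is given, since the difference equals that of the scaling. Its paralog Cox4i2, known from lung and hypoxic cells, was not saturated and had the widest interval among the paralogs, -0.63 to 0.26 around a difference of -0.18 (SE 0.19, adjusted p = 0.558).

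**Figure D2:**
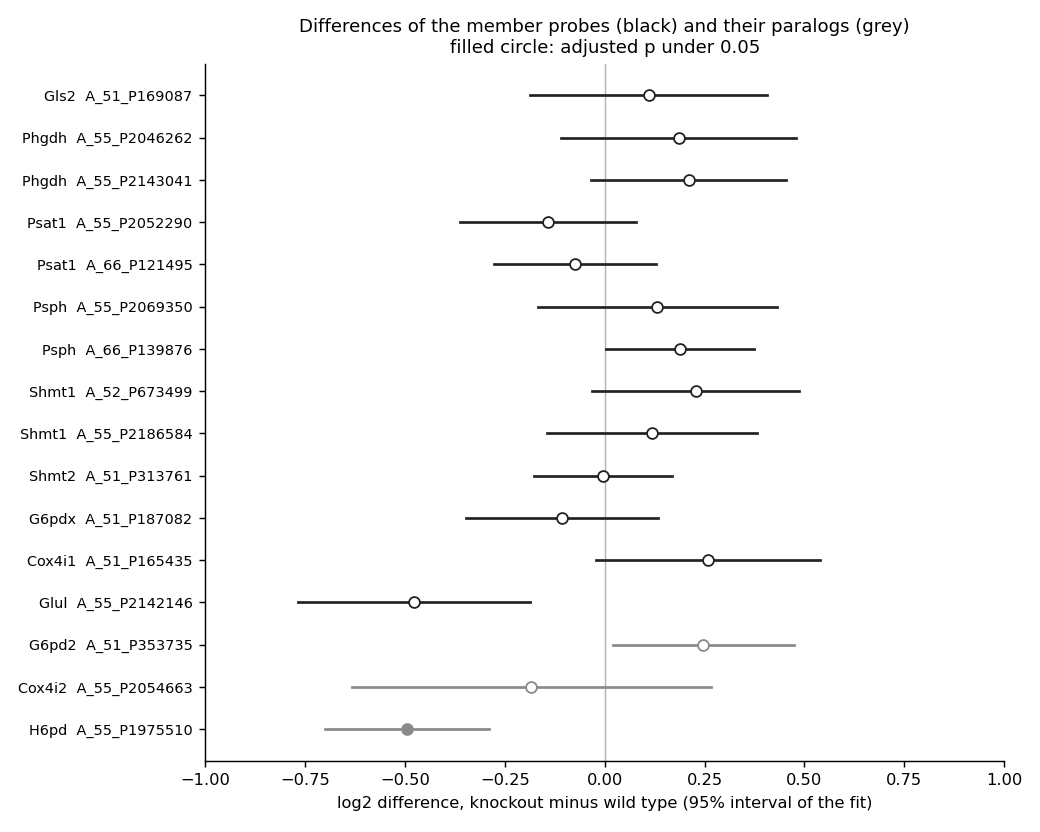
Log2 difference, knockout minus wild type (x axis), with the 95% interval of the limma fit for each of the 13 member probes (black) and the 3 probes of their paralogs (grey). Every member circle is open, since none was called, and the interval lies below 0 for Glul; the filled grey circle is H6pd.

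The other genes of these pathways were read from 5 lists with 151 tested genes in all, each by its brightest probe. Of these, 9 were called lower and 0 higher, with 142 not called (limma). By sign alone 89 of the 151 were lower and 62 higher, against 7184 lower and 9857 higher of all 17041 named genes tested. Before adjustment limma gave a p under 0.05 to 35 lower and 12 higher genes of the 151. Of all named genes tested it did so for 25.6%, 13.5% lower and 12.0% higher. The calls are 5.96% of the listed genes, beside 3.73% of all named genes tested, 3.52% lower and 0.217% higher. The number called was 4 without knockout replicate 1, 2 without replicate 2 and 1 without replicate 3; it was 5, 0 and 2 without wild type replicates 1, 2 and 3. It was 3 with slide as a block, 0 within slide 1 and 0 under normexp, and those last fits called 0 of all tested probes. Each of the 9 was lower within slide 1 and in the slide 2 pair, and none overlapped between groups, as 35.3% of all named genes did not; having been picked as called on these arrays, they give no independent support by this.

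Of 33 genes of glutamine and glutamate use, 2 were called lower and 0 higher (median -0.10). Gad1, which turns glutamate into the transmitter GABA, fell by 1.35 on the log2 scale (SE 0.15, adjusted p = 0.0133), from -5.01, -5.18 and -5.47 in wild type to -6.77, -6.51 and -6.43 in the knockouts. Its signal was near the dim end of the array, and under normexp the difference was 0.017. Gfpt2, which spends glutamine to start the hexosamine pathway, fell by 0.88 (SE 0.14, adjusted p = 0.0318), from -3.26, -2.99 and -2.75 to -3.97, -3.81 and -3.87. Neither overlapped between groups.

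Of 40 genes of serine, glycine and folate metabolism, 3 were called lower and 0 higher (median -0.07). Folr2, a folate receptor that also marks resident macrophages, fell by 1.03 (SE 0.11, adjusted p = 0.0115), with -2.52, -2.81 and -2.52 in the knockouts and -1.65, -1.49 and -1.63 in wild type. The macrophage markers were lower in the same arrays, as given above for Glul, and their part in this value was not tested. Sardh, a mitochondrial enzyme that makes glycine from sarcosine, fell by 0.67 (SE 0.08, adjusted p = 0.0168). The folate receptor Folr1 fell by 0.62 (SE 0.10, adjusted p = 0.0327) by its brighter probe, and its dimmer probe A_52_P584335 was not called (adjusted p = 0.309).

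Of 17 pentose phosphate genes H6pd alone was called (median -0.02). Of 36 genes of cytochrome c oxidase and its assembly, 1 was called lower and 0 higher, and the median was 0.10. A saturated spot on some array was found for 7 of the 36, where the scaling difference of 0.26 applies. The called gene was Cox7a1, the muscle and heart form of a small subunit, with -1.03, -0.85 and -0.78 in the knockouts and -0.35, -0.20 and -0.17 in wild type, a fall of 0.65 (SE 0.10, adjusted p = 0.0294).

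Of 25 genes of p53-family metabolic targets and the amino acid response, 2 were called lower and 0 higher, and the median was -0.20. Atf3, a stress-induced transcription factor, was not well above background on any knockout array. The fitted difference was -2.15 (95% interval -2.70 to -1.59, limma adjusted p = 0.0123), and its size is uncertain at such signals. With the knockout arrays set to a floor, the wild type mean of -5.61 was 4.21-fold higher, a value that leaves out the spread between mice. The floor is the lowest signal well above background on each knockout array, or the probe's own signal where that was higher. It moved the knockout mean only from -7.75 to -7.68, so signals not well above background still enter that fold. Under normexp Atf3 differed by 0.24. Ddit4, an inhibitor of mTORC1 signalling induced by stress, fell by 0.46 (SE 0.08, adjusted p = 0.0391), from 1.77, 1.95 and 1.82 to 1.39, 1.38 and 1.39. Ddit4 was called in none of the 6 fits that leave out 1 array. Atf4, the activator of Phgdh, Psat1, Psph and Shmt2 in amino acid shortage, differed by 0.13 (adjusted p = 0.443) over 2 knockout and 2 wild type arrays, with outlier spots left out on the others, and was named after its value was seen. The list's metabolic p53 target Tigar differed by -0.19 (adjusted p = 0.296) and Sesn2 by -0.69 (adjusted p = 0.249), with knockout replicate 2 far below the rest, both also named after their values were seen.

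**Figure D3:**
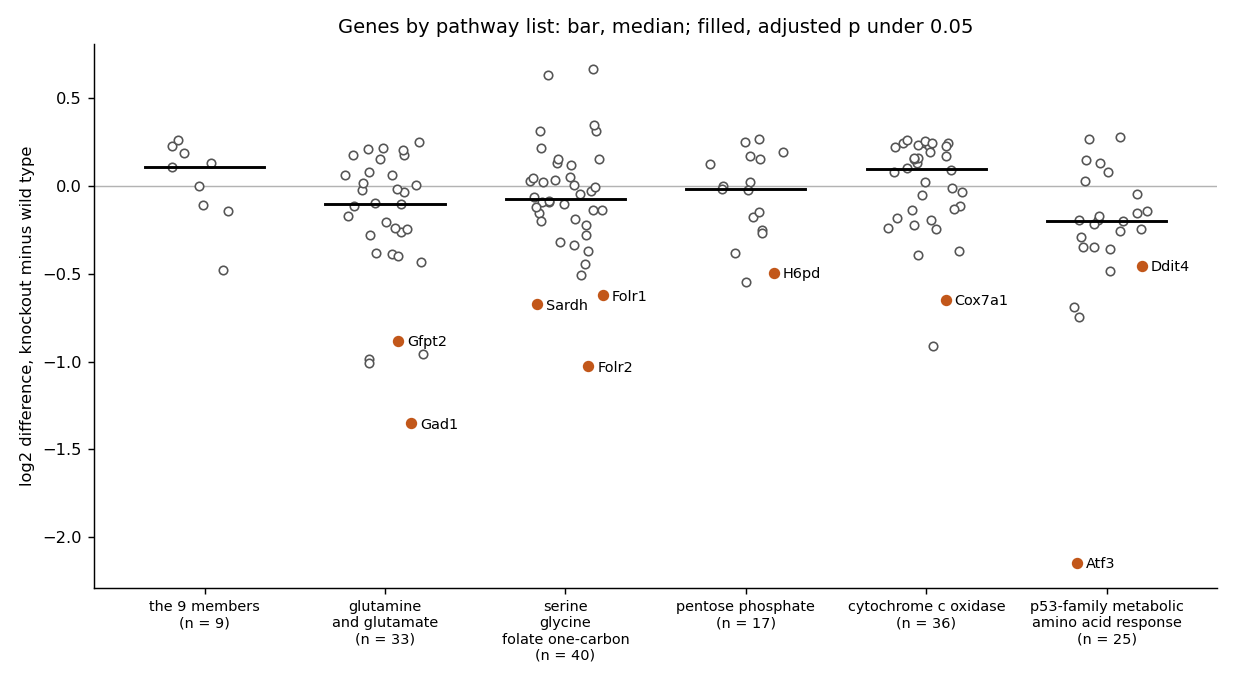
Log2 difference, knockout minus wild type (y axis), for the 9 members and for each gene of the 5 pathway lists (x axis), 1 point per gene by its brightest probe; bars are medians and filled points passed the test. The 9 named points are the called genes, all below 0, and the members lie between -0.48 and 0.26 with none filled.

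**Figure D4:**
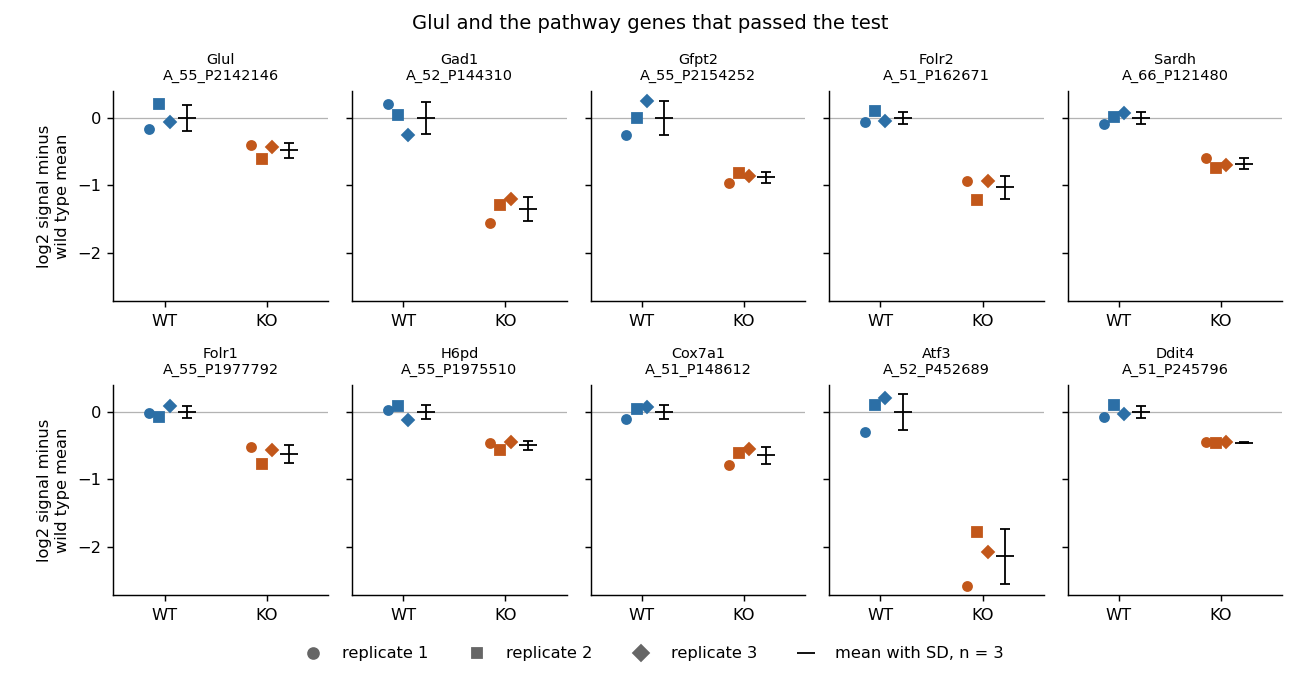
Log2 level in each array minus the wild type mean (y axis) for Glul and the 9 called pathway genes, with wild type (WT) at the left and TAp73 knockout (KO) at the right; symbols are replicates and bars are the mean with SD. In every panel the 3 knockout arrays lie below the 3 wild type arrays, by the most for Atf3, whose knockout values were not well above background.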

How the data were processed

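The deposited scanner files hold spot intensity on a linear scale, from Feature Extraction 10.7.3.1 and an array design built on mm9, per the file headers; the processed signal, background-subtracted for each spot, was used as deposited. The authors also deposited a table of normalized probe intensity whose making the sources used here do not describe; limma is named in the submitters' processing notes. Its columns matched scanner arrays of the opposite label (correlation of deviations 0.968 to 0.994, next best at most 0.266).

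Control spots and outlier spots were left out, log2 signals of a probe's spots were averaged, and the 75th percentile of each array was subtracted from them. Probes well above background on at least 3 of 6 arrays were tested with limma 3.58.1 (R 4.3.3; group as the only term, two-sided, Benjamini-Hochberg). The fit was tested on simulated data with planted differences larger than that of any member probe. That test therefore says nothing of differences of the members' size. The number of arrays limits the precision. Probes were named by accession through RefSeq (GRCm38.p6; 26055 of 39429). A gene's value is its brightest tested probe. Alternatives were normexp (offset 50, on the median signal because the mean signal planned is not a column of the files), quantile and median scaling, filters, slide, replicate number, and each array left out.

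Genes named are the members, Trp73, the paralogs G6pd2, Cox4i2 and H6pd, up to 4 called genes per pathway list or the 2 with the smallest p where none was called, and the 2 genes most like Gls2; a further gene under this rule is not reported here. Atf4, Tigar and Sesn2 fall outside the rule and were named after their values were seen. Members and lists were chosen with earlier results of these data known.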

Additional observations from a re-analysis of the deposited data

How the results depend on the processing

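No member probe was called under any of the 17 alternatives by which the count was recomputed, those that leave out 1 array and the authors' table included (limma). Normexp and the fit within slide 1 called 0 of all tested probes, and the replicate block called 10. The absence of member calls in those fits therefore says little about the members. The median over the 9 genes, 0.11 as reported, was 0.056 under normexp, 0.033 with quantile normalization, 0.016 with both, 0.0055 within slide 1, 0.17 with median scaling and 0.022 to 0.19 with 1 array left out. Normexp moved the median of all tested probes from 0.06 to 0.22. Shmt2 changed sign under normexp (0.036), quantile normalization (0.033), median scaling (0.059) and normexp with quantile normalization (0.016), and ran from -0.035 to 0.032 with 1 array left out. Under normexp Gad1 (0.017) and Atf3 (0.24) changed sign; the cause was not tested.

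The 9 calls among pathway genes, all lower, became 0 under normexp, 4 without a filter on dim probes, 3 with slide as a block, 0 within slide 1 and 0 to 5 with 1 array left out. Of 16 alternatives, Folr2 was called in 11, Gad1 in 10, Sardh in 7, and Gfpt2 and Cox7a1 in 5 each. Folr1 and H6pd were called in 4 each, Ddit4 in 3, and Atf3 in 9 of 15. The replicate numbers did not pair the arrays (correlations of -0.03, -0.08 and -0.09 between the deviations of arrays with the same number). With the replicate block 0 pathway genes and 10 probes in all were called, against 917 without it. The Trp73 probe A_52_P193555 differed by -1.88 under normexp (adjusted p = 0.537), -5.77 within slide 1 (adjusted p = 0.183) and -6.01 with the replicate block (adjusted p = 0.0686).

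With the authors' table and its own, opposite labels, the members read Gls2 -0.17, Phgdh -0.088, Psat1 0.14, Psph -0.12, Shmt1 -0.25, G6pdx 0.15, Cox4i1 -0.032 and Glul 0.50, all of the opposite sign, and Shmt2 -0.029, of the same sign, with a median of -0.032. Signal over background did not limit the members; saturation limited Cox4i1.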
